A study of Mus musculus with 12 samples.

Results

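The comparison described here is between the livers of GRmKO and GRf/f mice given corticosterone, and it asks which liver responses to the hormone depend on the glucocorticoid receptor (GR) of skeletal muscle. It uses 2 of the 12 RNA-seq libraries of the series, and the 2 vehicle libraries of the same tissue serve to measure each genotype's own response. A gene was measured when its value was above 0 in all 4 liver libraries, which held for 12485 of the 22252 genes listed. Both genotypes carry floxed alleles of Nr3c1, the gene of the GR, in which exon 3 (part of the DNA-binding domain) lies between loxP sites. GRf/f mice have no Cre, and GRmKO mice also carry a Cre transgene under the Acta1 promoter, which is active in skeletal muscle fibres, so that the deletion is directed to muscle and not to liver. Male mice on the C57BL/6J background were 8 weeks old at the start and drank water with either 1% ethanol (vehicle) or 100 µg/mL corticosterone in 1% ethanol (CORT) for 4 weeks. Each library was made from RNA pooled from 3 mice. With 1 pool per group the spread between mice or between pools is unknown, no test between groups is possible, and no p-value is given.

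Corticosterone is the main glucocorticoid of mice. In hepatocytes the ligand-bound receptor acts as a transcription factor on genes of glucose, lipid and amino acid metabolism, and several of these genes are also set by insulin, growth hormone and the circadian clock. Skeletal muscle answers to excess glucocorticoid with net breakdown of protein and release of amino acids that the liver takes up, and is itself a main site of glucose use.

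The 4 liver libraries held between 20471247 and 20940660 assigned reads and between 14313 and 14467 genes above 0, so depth was nearly equal across groups. Values are read counts as a share of the library's total, on the usual CPM scale, and 3 reads, taken as the detection floor, correspond to 0.143 to 0.147 CPM. Differences are given as log2 ratios after adding 0.5 CPM to each value, and a gene is called different at 2-fold or more. Where an interval is given, it is the 95% counting interval of the plain ratio, without the added 0.5 CPM, so that at low levels the log2 value can lie outside it. These intervals cover counting error only and not the differences between mice. Nr3c1 itself was at 45.2 CPM in GRf/f and 49.6 CPM in GRmKO liver under CORT (log2 difference 0.13), and at 58 and 60.8 CPM under vehicle. In gastrocnemius muscle of the same study it stood at 39.2% of the GRf/f level under CORT and 41.2% under vehicle. Hepatocyte markers were high in every library, with albumin (Alb) at 49853 to 111499 CPM, and 0 of the 11 measured were called between genotypes. Each entry of the tables is 1 transcript standing for its gene, so reads assigned to another transcript of the gene, or to a near-identical relative, can move an entry without a change of the gene.

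Under CORT, 305 genes were higher in GRmKO than in GRf/f liver by 2-fold or more, 2.44% of the genes measured, and 284 were lower, 2.27%. Together these 589 genes made up 4.72%, against 287 (2.3%) under vehicle, where 157 genes (1.26%) were higher and 130 (1.04%) lower. The genotypes were thus further apart under CORT than under vehicle by this count, and the 95th percentile of the absolute log2 difference was 0.97 under CORT and 0.78 under vehicle. The median over all genes was 0.07 under CORT and 0.03 under vehicle. Only 16 of the 305 genes were also higher under vehicle and 12 of the 284 also lower under vehicle, that is 5.25% and 4.23% of the lists under CORT and 10.2% and 9.23% of the lists under vehicle. Genes called under CORT were expressed at lower levels than the rest, with a median mean level of 4.30 CPM for those higher and 4.51 CPM for those lower, against 9.34 CPM over all genes, and 99 and 128 of them reached 10 CPM in a CORT library.

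The response to CORT was counted in each genotype from its own pair of libraries. In GRf/f liver CORT raised 737 genes (5.9%) and lowered 714 (5.72%), whereas in GRmKO liver it raised 349 (2.8%) and lowered 352 (2.82%). Of the 737 genes raised in GRf/f liver, 177 were also raised in GRmKO liver (24.0% of the first list and 50.7% of the second), and of the 714 lowered genes 193 were lowered in both (27.0% and 54.8%). The direction was mostly kept: 561 of the 737 raised genes (76.1%) and 603 of the 714 lowered genes (84.5%) moved with the same sign in GRmKO liver. The median log2 response of the raised genes was 1.39 in GRf/f and 0.51 in GRmKO liver, and that of the lowered genes was -1.35 and -0.62. Genes chosen in one genotype tend to read smaller in the other, and this selection was not measured on its own. With the reverse choice, genes raised in GRmKO liver had a median of 1.34 there and 1.02 in GRf/f liver, and genes lowered in GRmKO liver had -1.29 and -1.08.

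**Figure D1:**
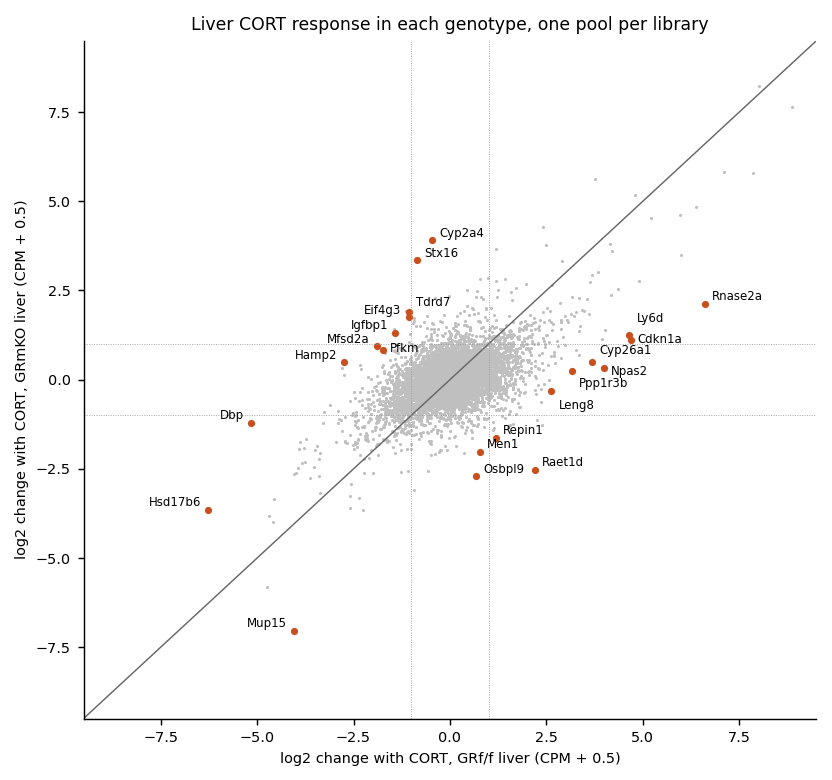
Log2 change with CORT in GRf/f liver (horizontal) against that in GRmKO liver (vertical) for the 12485 measured genes (grey points), with the genes whose responses differed most in orange. The solid line marks equal responses and the dotted lines 2-fold changes, and more genes lie beyond the vertical dotted lines (737 raised and 714 lowered) than beyond the horizontal ones (349 raised and 352 lowered).

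A response at least 2-fold smaller in GRmKO liver was found for 373 of the 737 raised genes (2.99% of all genes) and 281 of the 714 lowered genes (2.25%). The mirror counts, responses of GRmKO liver at least 2-fold smaller in GRf/f liver, were 110 of 349 (0.881% of all genes) and 96 of 352 (0.769%). As shares of the genes raised and lowered in GRmKO liver these were 31.5% and 27.3%. The shares of the GRf/f lists were 50.6% and 39.4%. A smaller response can come from a different level under CORT or from a different level under vehicle. Of the 373 genes, 122 differed 2-fold between genotypes only under CORT, 62 only under vehicle, 18 under both and 171 under neither. Of the 281 lowered genes, 132 differed only under CORT, 26 only under vehicle, 10 under both and 113 under neither. The difference under CORT and the response of GRf/f liver share the GRf/f CORT library, so both move with that pool, and they are given side by side below without being set against each other.

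The genes furthest above GRf/f in GRmKO liver under CORT included several that fell 2-fold or more with CORT in GRf/f liver. Below, 4 CPM values in a row are always in the order GRf/f vehicle, GRf/f CORT, GRmKO vehicle, GRmKO CORT. Members named beside the count of a gene list, and genes marked as such, were chosen after their values were seen. Alas1 (chr9:106233455-106248654, GRCm38), the rate-limiting enzyme of haem synthesis, was at 485, 50.1, 519.4 and 275 CPM. The 2 vehicle libraries were close, and the GRf/f CORT library alone was far below the rest, with a log2 difference between genotypes under CORT of 2.44 (2.36 to 2.55). Mfsd2a (chr4:122946850-122961188), a transporter of lysophospholipids that is induced by fasting, was at 52.3, 13.6, 73.2 and 140.2 CPM. It fell in GRf/f liver (log2 -1.90), whereas in GRmKO liver its change was 0.93. Depp1, a target of FoxO transcription factors, was at 39.9, 4.2, 31 and 18.9 CPM, a log2 response of -3.10 against -0.70. Lipg, an endothelial-type lipase, was at 17.8, 2.29, 27.6 and 13.1 CPM and fell in both genotypes, by 2.71 and 1.05 on the log2 scale. Hamp2, a hepcidin gene, was at 13.9, 1.65, 23.4 and 32.9 CPM, with 32.8% of the 31-base words of its transcript also found in Hamp. Cpsf1 and Wdr81 (an mRNA 3' end processing factor and a WD-repeat protein) fell 2-fold or more in GRf/f liver and stood at 22 and 16.6 CPM in the GRmKO CORT library, but each entry is 1 of 3 coding transcripts of its gene.

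Among the genes lower in GRmKO liver under CORT were genes that CORT raised in GRf/f liver. Cyp26a1 (chr19:37697798-37701536), the enzyme that degrades retinoic acid, was at 7.02, 95.9, 12 and 17.2 CPM, so that its log2 response was 3.68 in GRf/f and 0.51 in GRmKO liver. The GRf/f CORT library was the only high one, and the log2 difference between genotypes under CORT was -2.44 (-2.64 to -2.31). Ly6d, a small surface protein, was at 0.429, 22.8, 1.39 and 4.02 CPM. Rnase2a, a member of the eosinophil ribonuclease family, was at 0.238, 71.1, 0.384 and 3.34 CPM. Of 7 eosinophil markers 1 was measured (Ear2, at 0.588 and 0.872 CPM under CORT) and 4 were at 0 in both CORT libraries, and the part of eosinophils was not tested. Raet1d, a ligand of the NKG2D receptor, was at 6.66, 32.4, 12.3 and 1.71 CPM, high in the GRf/f CORT and low in the GRmKO CORT library, and shares 65.1% of its 31-base words with Raet1e. Others differed between genotypes under both treatments: Selenbp2, Ep400, Sh3pxd2a and Rhbg were lower in GRmKO liver by 1.46 to 1.70 log2 units under vehicle and by 2.53 to 3.07 under CORT. Selenbp2 had 67.0% of its words in Selenbp1 and Rhbg had 60.8% in another gene, and Ep400 and Sh3pxd2a are 1 of 6 and 1 of 3 coding transcripts. Mup15, a major urinary protein gene, was at 4921, 298, 2468 and 18.2 CPM, with all of its words also in other genes. Osbpl9, an oxysterol-binding protein, was at 42, 67.8, 79.2 and 11.7 CPM and is 1 of 7 coding transcripts. Cyp2a4, a steroid hydroxylase, was at 0.805, 0.449, 0.322 and 11.8 CPM, high in the GRmKO CORT library, with 55.9% of its words in Cyp2a5.

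**Figure D2:**
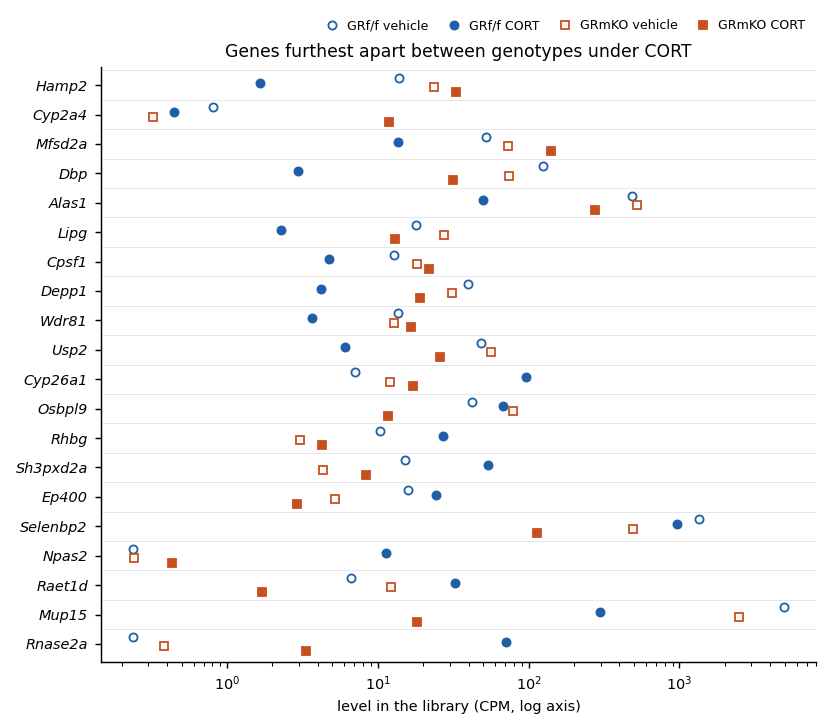
Level in each of the 4 liver libraries (CPM, log axis) of the 10 genes most above and the 10 most below GRf/f in GRmKO liver under CORT, among genes at 10 CPM or more in a CORT library. Each marker is 1 pool of 3 mice, blue circles for GRf/f and orange squares for GRmKO, open for vehicle and filled for CORT. For Alas1 the filled blue circle (50.1 CPM) stands apart from the other 3 markers (275 to 519.4 CPM), and for Selenbp2 both orange squares lie below both blue circles.

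The clock genes Dbp and Npas2 were among the responses that differed most. The clock runs on a feedback loop in which ARNTL with CLOCK or NPAS2 activates genes through E-boxes, among them the Per and Cry repressors, the Rev-erb receptors (Nr1d1, Nr1d2), Ciart and Dbp, and the PAR-bZIP factors DBP, TEF and HLF in turn activate genes through D-boxes, which NFIL3 opposes. In GRf/f liver CORT raised 4 of the 18 measured members of the list (Npas2, Clock, Cry1 and Nfil3) and lowered 4 (Dbp, Ciart, Usp2 and Per3), against 5.9% and 5.72% of all genes. In GRmKO liver it raised 0 and lowered 5 (Dbp, Ciart, Usp2, Per3 and Bhlhe41), against 2.8% and 2.82%. Between genotypes under CORT, 3 members were higher in GRmKO (Dbp, Usp2 and Ciart) and 1 was lower (Npas2), against 2.44% and 2.27% of all genes. Ciart was within 2-fold when 2 CPM was added in place of 0.5 CPM. The list's median difference was -0.11, beside 0.07 over all genes. Clock, Nfil3, Per3, Tef, Hlf, Rora, Cry2, Nr1d1 and Nr1d2 are described below to complete the loop and were chosen after their values were seen.

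On the positive arm, Npas2 (chr1:39193731-39363236) was at 0.239, 11.3, 0.243 and 0.432 CPM, so its level in GRmKO liver under CORT was within a few reads of the vehicle libraries (log2 response 3.99 in GRf/f and 0.33 in GRmKO). Clock was at 13.1, 50.2, 18.6 and 31.7 CPM, with log2 responses of 1.90 and 0.75. Arntl, its partner, had a 0 in 1 library and was therefore not among the measured genes; it stood at 0.573 CPM in GRf/f vehicle, 13.9 in GRf/f CORT, 0 in GRmKO vehicle and 3.28 in GRmKO CORT. All 3 activators were highest in the GRf/f CORT library. Cry1, a repressor, was at 6.12, 20.2, 11.3 and 10.4 CPM, and Nfil3 was at 10.5, 29.5, 16.7 and 21 CPM. Their log2 responses were 1.65 and 1.45 in GRf/f, and -0.11 and 0.32 in GRmKO liver.

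On the output side, Dbp (chr7:45705088-45710203) was at 124, 2.97, 74.1 and 31.6 CPM. It fell in both genotypes, by 5.16 on the log2 scale in GRf/f and by 1.22 in GRmKO liver, and the difference of the responses was 3.95 (counting interval 3.75 to 4.53). Usp2, a deubiquitinase under clock control, was at 48.2, 6.09, 56.1 and 25.8 CPM. Ciart, a repressor of CLOCK-ARNTL, was at 19.9, 1.29, 24.2 and 4.06 CPM. In each of these genes the vehicle libraries of both genotypes were high, the GRf/f CORT library was lowest, and the GRmKO CORT library lay between. Tef and Per3 showed the same order with smaller steps (91.8, 46, 96.2 and 81.2 CPM for Tef, and 14.5, 3.46, 14.2 and 5.81 CPM for Per3), and neither passed 2-fold between genotypes. Hlf, Rora, Nr1d1, Nr1d2 and Cry2 changed by less than 2-fold in both genotypes, with log2 responses between -0.84 and 0.52 in GRf/f and between -0.34 and 0.10 in GRmKO liver. Per1 was at 0 in 2 of the 4 libraries and was not measured.

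Promoters are printed for 3 of these genes whose levels moved together and which hold a clock motif in the 300 bases from 250 before to 50 after the RefSeq gene start (GRCm38.p6), 5' to 3' on the gene's strand, with the motif in capitals. The capitals mark the E-box (CACGTG) in Ciart and Tef and the D-box (TTATGTAA, or its reverse complement) in Per3.
Ciart, chr3:95882179-95882478, minus strand: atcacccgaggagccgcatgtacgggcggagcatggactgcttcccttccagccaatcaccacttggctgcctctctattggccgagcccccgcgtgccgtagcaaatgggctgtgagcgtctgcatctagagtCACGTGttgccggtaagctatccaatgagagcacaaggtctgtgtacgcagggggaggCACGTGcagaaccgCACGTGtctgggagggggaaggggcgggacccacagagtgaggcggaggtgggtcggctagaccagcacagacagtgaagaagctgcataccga
Tef, chr15:81802423-81802722, plus strand: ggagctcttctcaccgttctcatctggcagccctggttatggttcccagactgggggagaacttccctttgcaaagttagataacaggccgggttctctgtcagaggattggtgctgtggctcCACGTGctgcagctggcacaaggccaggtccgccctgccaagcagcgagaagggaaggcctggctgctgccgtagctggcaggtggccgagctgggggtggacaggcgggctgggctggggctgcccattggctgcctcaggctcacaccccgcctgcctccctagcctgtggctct
Per3, chr4:151044616-151044915, minus strand: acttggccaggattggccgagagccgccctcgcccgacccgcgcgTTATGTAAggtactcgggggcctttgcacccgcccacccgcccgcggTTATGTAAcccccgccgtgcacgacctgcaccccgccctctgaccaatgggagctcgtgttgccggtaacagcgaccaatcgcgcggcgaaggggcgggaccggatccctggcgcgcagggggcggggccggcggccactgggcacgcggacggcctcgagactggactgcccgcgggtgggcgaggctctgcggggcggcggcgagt

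Ciart holds 3 E-boxes, Tef 1 and Per3 2 D-boxes in these windows. Over all 32851 promoters of the same length, 7.15% held an E-box and 0.938% a D-box on either strand, and of the 17 clock genes with a promoter 5 held an E-box and 1 a D-box. Cry1, which CORT raised in GRf/f liver (log2 1.65), also held an E-box, so the motif was not particular to genes that fell. Dbp and Npas2 held none of the 6 motifs searched in this window. The palindromic glucocorticoid response element was in 0 of the 17 clock promoters and in 0.00913% of all. A match describes the letters only.

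The same clock genes can be read in the other tissues of the series, from their own libraries. In gastrocnemius muscle Dbp was at 116, 3.37, 149.5 and 71.3 CPM, higher in GRmKO than in GRf/f under CORT as in liver. Unlike in liver, Ciart in muscle was lower in GRmKO under CORT (log2 -0.62), at 9.72, 5.11, 6.73 and 3.14 CPM. Npas2 in muscle was at 3.27, 6.27, 1.05 and 2.02 CPM, with responses of 0.85 and 0.70. It was lower in GRmKO under CORT as in liver (log2 -1.43), but in muscle also under vehicle (-1.28). Other clock genes went either way. Clock was lower in GRmKO under CORT in both tissues (-1.29 in muscle), whereas Hlf was higher in muscle (0.67) and not in liver (-0.07). In white adipose tissue Dbp was at 245.7, 8.75, 194.7 and 8.40 CPM, so that the fall with CORT was as deep in GRmKO as in GRf/f mice (log2 -4.45 and -4.73). Npas2 in white adipose tissue likewise rose in both genotypes, at 0.902, 6.89, 0.658 and 4.95 CPM. Whether the tissues came from the same mice is not stated.

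**Figure D3:**
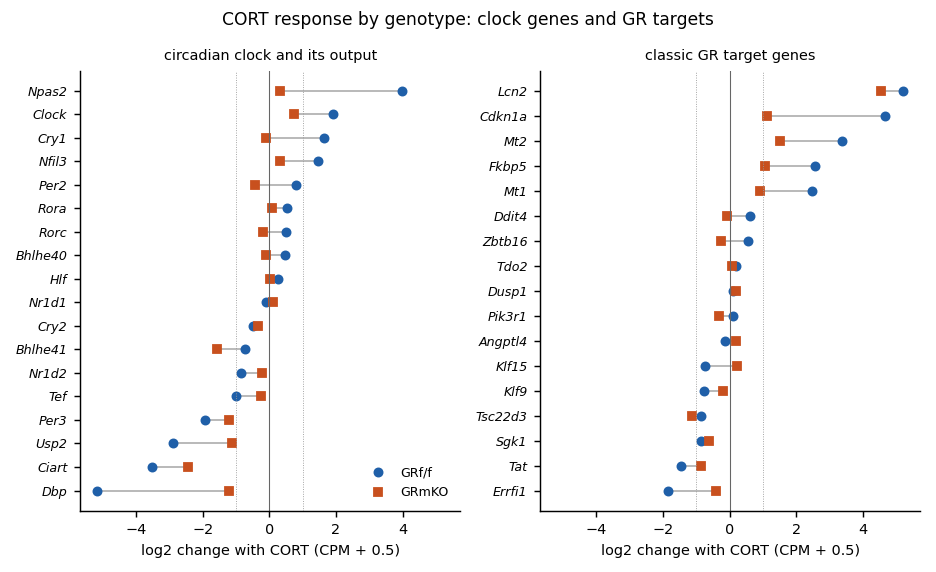
Log2 change with CORT in GRf/f (blue circles) and GRmKO liver (orange squares) for the 18 measured clock genes (left) and the 17 measured GR target genes (right), each point from 1 pair of pooled libraries. Dotted lines mark 2-fold, and the orange squares lie nearer 0 than the blue circles at both ends of both lists, as for Dbp (-5.16 and -1.22) and Mt2 (3.36 and 1.51).

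Well-known GR targets did not share a single behaviour. Of 17 measured members, CORT raised 5 in GRf/f liver (Lcn2, Cdkn1a, Mt2, Fkbp5 and Mt1) and 4 in GRmKO liver (Lcn2, Mt2, Cdkn1a and Fkbp5), against 5.9% and 2.8% of all genes. It lowered 2 in GRf/f and 1 in GRmKO liver, against 5.72% and 2.82%. Under CORT 4 were lower in GRmKO liver (Cdkn1a, Mt2, Mt1 and Lcn2) and 1 was higher (Errfi1), against 2.27% and 2.44%. The median difference was 0.06, which became -0.02 with the libraries rescaled. Mt2 (chr8:94172664-94173568), a metal-binding metallothionein, was at 15.3, 162, 14.7 and 42.8 CPM, and its neighbour Mt1 was at 34.5, 193, 36.2 and 68.6 CPM. The vehicle libraries were close for both, and the difference lay in the CORT libraries. Cdkn1a, the cell cycle inhibitor p21, was at 1.12, 41, 4.38 and 10.1 CPM, so here the vehicle levels differed as well (log2 1.59). Fkbp5, a co-chaperone of the receptor named here after its values were seen, was at 47.7, 286, 70.2 and 147 CPM, a log2 response of 2.57 against 1.06. Errfi1, a feedback inhibitor of the EGF receptor, was at 856, 239, 807 and 612 CPM, with a log2 response of -1.84 in GRf/f and -0.40 in GRmKO liver. Tat, the tyrosine aminotransferase, was at 2139.9, 773, 2373 and 1312 CPM, lower with CORT in both genotypes (log2 -1.47 in GRf/f and -0.85 in GRmKO liver), with a difference of 0.76 under CORT that did not pass 2-fold. Tsc22d3, Sgk1, Klf9, Dusp1 and Tdo2, all named after their values were seen, had differences between genotypes under CORT of -0.07 to 0.66. Among the corticosteroid-handling genes, Nr3c2, the mineralocorticoid receptor, was at 5.04, 3.7, 7.51 and 9.03 CPM, and Serpina6, the blood carrier of corticosterone, fell alike in both genotypes, by 2.24 and 2.23 on the log2 scale.

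Insulin lowers some liver genes by inactivating FoxO factors and raises those of glycolysis and fatty acid synthesis. Of 16 FoxO targets, 3 were higher in GRmKO liver under CORT (Igfbp1, Trib1 and Pck1) and 0 were lower, against 2.44% and 2.27% of all genes, with a median of 0.19. In GRf/f liver 4 fell (Pck1, Igfbp1, Foxo3 and Trib1) and 4 rose (Pdk4, Apoc3, Mttp and G6pc), and in GRmKO liver 0 fell and 4 rose (Irs2, Apoc3, G6pc and Igfbp1). Igfbp1 (chr11:7197782-7202546), a secreted IGF-binding protein that insulin represses, was at 37.8, 13.9, 18.2 and 45.9 CPM. It fell in GRf/f liver (log2 -1.41) and rose in GRmKO liver (1.31), and it was lower in GRmKO liver under vehicle (-1.04) but higher under CORT (1.69, 1.53 to 1.92). Trib1, a pseudokinase that restrains lipogenesis, was at 44.7, 17.6, 46.1 and 56.8 CPM. Irs2, the insulin receptor substrate, named after its values were seen, was at 15.2, 9.85, 5.2 and 15.1 CPM, with log2 responses of -0.60 and 1.45.

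Of the 15 genes of glucose production and glycogen, Pck1 was higher and Ppp1r3c lower in GRmKO liver under CORT. The shares of all genes were 2.44% and 2.27%. Pck1 (chr2:173153048-173159273), the cytosolic PEP carboxykinase of gluconeogenesis, was at 2563, 762, 2250.3 and 1894 CPM, so it fell in GRf/f liver (log2 -1.75) and held near its vehicle level in GRmKO liver (-0.25). G6pc, which releases free glucose in the last step of the pathway, was at 247, 521.8, 184 and 470.0 CPM and rose in both genotypes (1.08 and 1.35). The 2 gluconeogenic enzymes thus differed in how the genotypes responded. Ppp1r3c, which targets protein phosphatase 1 to glycogen, was at 39.9, 109, 54.2 and 41.4 CPM, with log2 responses of 1.44 in GRf/f and -0.39 in GRmKO liver. Its relative Ppp1r3b was at 16.6, 152, 87 and 104 CPM, and there the genotypes differed under vehicle (log2 2.35) rather than under CORT (-0.55). Fbp1, Pcx, Gys2 and Pygl, named after their values were seen, differed by -0.33 to 0.11 under CORT.

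The Pck1 promoter is printed because it holds the core of the cAMP response element (TGACG, here on the other strand as CGTCA, in capitals), letters bound by the fasting-activated factor CREB. This core is common, occurring in 20.8% of all promoters.
Pck1, chr2:173152823-173153122, plus strand: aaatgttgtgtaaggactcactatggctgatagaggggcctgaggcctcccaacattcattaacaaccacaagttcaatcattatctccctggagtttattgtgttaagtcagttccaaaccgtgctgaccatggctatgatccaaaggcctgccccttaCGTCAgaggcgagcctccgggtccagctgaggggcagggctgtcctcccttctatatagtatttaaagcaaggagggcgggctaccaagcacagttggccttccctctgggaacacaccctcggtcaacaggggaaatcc

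Of 19 insulin-raised genes of glycolysis and fatty acid synthesis, CORT raised 10 in GRf/f liver (5.9% of all genes) and 2 in GRmKO liver (Pklr and Tkfc, 2.8% of all genes), with median responses of 1.18 and -0.13. Under CORT 3 were lower in GRmKO liver (Elovl6, Thrsp and Mlxipl) and 2 higher (Fads1 and Fads2), with a list median of -0.25. The shares of all genes were 2.27% and 2.44%. Under vehicle 3 were higher in GRmKO liver (Angptl8, Thrsp and Fasn), against 1.26% of all genes, with a median of 0.46. Higher vehicle levels and lower CORT levels therefore both entered the smaller response. Elovl6 (chr3:129532355-129638495), which elongates saturated fatty acids, was at 67.4, 168, 109 and 77.9 CPM. Mlxipl, which encodes the carbohydrate-response factor ChREBP, was at 49.9, 114, 63.4 and 55.9 CPM. Thrsp, a lipogenic regulator, was at 226, 736, 697 and 359.8 CPM, with a log2 response of 1.70 in GRf/f liver and a value of -0.95 in GRmKO liver. Fasn, the fatty acid synthase, named after its values were seen, was at 81.2, 253, 241 and 202 CPM, so that the GRf/f vehicle library was the low one. Pklr, the liver pyruvate kinase, also named after its values were seen, was at 118, 683, 173 and 411 CPM and rose in both genotypes (2.52 and 1.24). The desaturases of polyunsaturated fatty acids went the other way: Fads1 was at 276, 52.4, 353 and 160.2 CPM and Fads2 at 258, 54.7, 281 and 111 CPM, falling in both genotypes and further in GRf/f liver. Fads2 (log2 1.01) dropped below 2-fold between genotypes when the libraries were rescaled. Fads2 and Mlxipl did so when 2 CPM was added in place of 0.5 CPM.

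**Figure D4:**
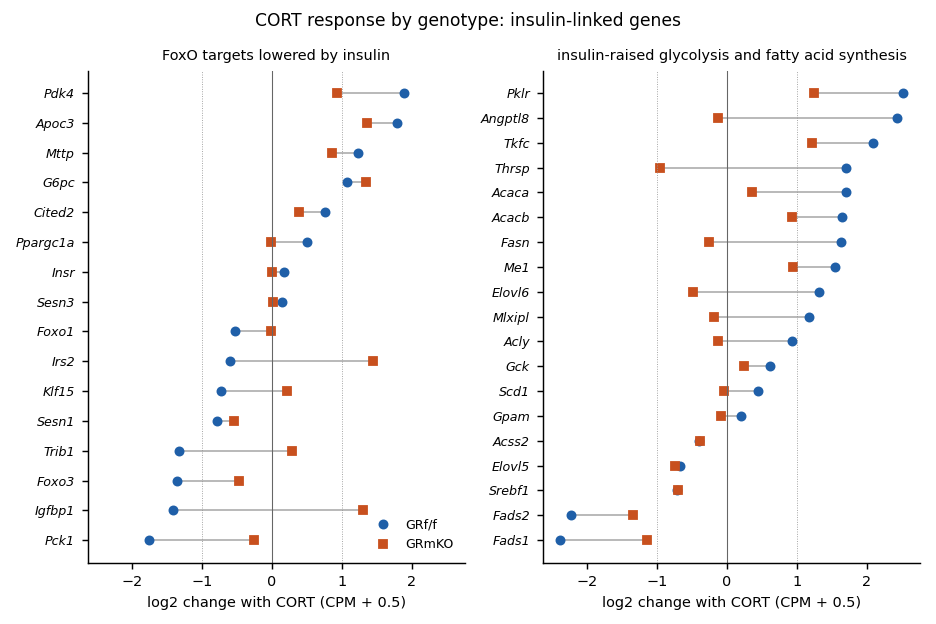
Log2 change with CORT in GRf/f (blue circles) and GRmKO liver (orange squares) for the measured FoxO targets (16, left) and insulin-raised genes (19, right), each point from 1 pair of pooled libraries. In the right panel 10 blue circles but 2 orange squares lie above the right dotted line (2-fold).

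Cholesterol synthesis genes respond to the sterol-sensing factor SREBP2. CORT lowered 9 of the 24 measured members in GRf/f liver (5.72% of all genes) and 4 in GRmKO liver (2.82% of all genes), Insig1, Sc5d and Msmo1 among them, with median responses of -0.76 and -0.42. Under CORT 23 of the 24 had a positive log2 difference, and the median was 0.75, beside 0.07 over all genes. Of these, 4 passed 2-fold, Idi1 and Cyp51 among them, against 2.44% of all genes. Idi1 (chr13:8885501-8892451), an isomerase of the isoprenoid steps, was at 37.5, 10.2, 39.7 and 27.1 CPM, with log2 responses of -1.83 and -0.54. Cyp51, the lanosterol demethylase, was at 33.3, 12.6, 37.1 and 26 CPM. In both genes the GRf/f CORT library was the lowest of the 4. Cyp51 (1.01) was within 2-fold after rescaling, while the list median stayed at 0.67. Under vehicle the list median was 0.21, and 2 members were higher in GRmKO liver there, Insig1 among them.

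PPAR-alpha targets and other fasting genes changed with CORT in both directions in both genotypes. Of 27 measured members CORT raised 8 and lowered 7 in GRf/f liver, against 5.9% and 5.72% of all genes, and raised 5 and lowered 2 in GRmKO liver, against 2.8% and 2.82%. Under CORT 3 were higher in GRmKO liver (Mfsd2a, Fgf21 and Acot3) and 0 lower, against 2.44% and 2.27% of all genes. The list median was 0.14. Fgf21, a hormone of fasting and of amino acid or mitochondrial stress, was at 0.0955, 2.84, 0.193 and 8.93 CPM, rising in both genotypes from levels of a few reads. Cpt1a (chr19:3322334-3385733), which commits fatty acids to mitochondrial oxidation, was at 321, 113, 273 and 189 CPM, lower with CORT in both genotypes (log2 -1.50 in GRf/f and -0.52 in GRmKO liver). Bdh1, a ketone body enzyme, was at 117, 23.8, 109.8 and 43.6 CPM and fell in both. Cyp4a14, a fatty acid hydroxylase named after its values were seen, was at 131, 1869, 253 and 2052 CPM, and rose in both genotypes to CORT levels that differed by 0.13. Among 23 lipid droplet and triglyceride genes, 6 rose and 4 fell in GRf/f liver, against 5.9% and 5.72% of all genes. In GRmKO liver 3 rose and 3 fell, against 2.8% and 2.82%. Only Hilpda, at 1.17 and 0.212 CPM, was called between genotypes under CORT, a share near the 4.72% of all genes called. Plin5, a lipid droplet coat protein, was at 11.5, 64.1, 11.8 and 37.3 CPM, and Cd36, the fatty acid importer, was at 17.9, 74.7, 19.8 and 46.5 CPM. Both rose in each genotype, with log2 differences under CORT of -0.77 and -0.68. Of 18 apolipoprotein and lipoprotein genes 0 were called between genotypes, against 4.72% of all genes. Apoa1, the HDL protein, was at 6186, 2554, 6749.6 and 4147 CPM, lower with CORT in both genotypes (-1.28 in GRf/f and -0.70 in GRmKO liver).

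Amino acid handling was examined because muscle is a main source of amino acids for the liver. Of 13 measured amino acid transporters CORT lowered 5 in GRf/f liver and 2 in GRmKO liver (Slc7a5 and Slc7a2), against 5.72% and 2.82% of all genes. Between genotypes under CORT 0 were called, against 4.72% of all genes, with a median of 0.20. Slc38a3 and Slc38a4, glutamine and neutral amino acid importers of hepatocytes, were at 1346, 478, 1355 and 705 CPM and at 742, 289, 739 and 416 CPM. Their levels under vehicle were nearly equal, and under CORT GRmKO liver was higher by 0.56 and 0.53. Slc7a2, an importer of cationic amino acids, was at 483, 145, 419 and 195 CPM and fell in both genotypes. Of 26 genes of amino acid catabolism 1 was called between genotypes, a share near the 4.72% of all genes called. It was Kyat1, an aminotransferase of kynurenine and glutamine (63.1, 33.8, 63.3 and 77.9 CPM, log2 1.19). Agxt, the alanine-glyoxylate aminotransferase, was at 168, 31.8, 159.9 and 61.7 CPM and fell in both genotypes (-2.39 and -1.37). Oat, the ornithine aminotransferase, was at 713, 385, 757 and 264 CPM, with log2 responses of -0.89 in GRf/f and -1.52 in GRmKO liver. Of the 9 urea cycle genes 0 were called between genotypes, against 4.72% of all genes, with a median of 0.02. Ass1 was at 3872 and 5105 CPM and Cps1 at 3162 and 2819.6 CPM in GRf/f and GRmKO liver under CORT.

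Sex-biased genes, which depend on the pattern of growth hormone release in adult mice, changed with CORT in both genotypes. Of 24 male-biased genes 18 fell in GRf/f and 18 in GRmKO liver, against 5.72% and 2.82% of all genes. Their medians were -1.55 and -1.42. Of 13 measured female-biased genes 10 rose in GRf/f and 9 in GRmKO liver, against 5.9% and 2.8% of all genes, and 1 fell in each. Under CORT 8 male-biased genes were lower in GRmKO liver, against 2.27% of all genes, 6 of them major urinary protein (Mup) genes whose near-identical sequences share reads, the others being Selenbp2 and Elovl3, and 2 were higher (Hsd17b6 and Nudt7). Mup17 was at 4667, 174, 2031 and 35.4 CPM and had 86.2% of its words in other genes. Elovl3, an elongase of very long chain fatty acids, was at 72.1, 112, 62.4 and 25.5 CPM, so it was high in the GRf/f CORT and low in the GRmKO CORT library. The list's median difference was -0.43 under CORT and also -0.43 under vehicle. Hsd17b6, a steroid dehydrogenase, was at 119, 1.05, 122 and 9.27 CPM, with log2 responses of -6.26 and -3.64. Among the female-biased genes, Sult1e1, the oestrogen sulfotransferase, was at 0.191, 324, 0.193 and 137 CPM. In that list 4 were higher (Cyp2a4, Cyp2b9, Acot3 and Abcd2) and 2 lower (Sult1e1 and Ntrk2) in GRmKO liver under CORT. Of all genes 2.44% were higher and 2.27% lower. Sult1e1 was near the floor in the vehicle libraries of both genotypes, and under CORT it was lower in GRmKO liver (log2 -1.24).

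In the growth hormone and IGF axis, Cish and Socs2, feedback inhibitors that STAT5 induces, were higher in GRmKO liver under CORT. Cish was at 14.2, 2.98, 19.6 and 10.8 CPM, a log2 difference under CORT of 1.69 (1.43 to 2.28). Socs2, named after its values were seen, was at 10.7, 1.8, 10.9 and 9.27 CPM. For both, the GRf/f CORT library was far below the others. Bcl6, a repressor that opposes STAT5 and is higher in male liver, was at 35.5, 23.6, 39.9 and 6.38 CPM, and was lower with CORT in both genotypes (log2 -0.58 in GRf/f and -2.55 in GRmKO liver). Igf1 was at 167 and 228 CPM under CORT and Ghr at 202 and 207 CPM, both named after their values were seen and neither called. Igfbp2 was at 390.1, 15.8, 473 and 29.5 CPM and fell in both genotypes. Of 14 measured members 3 were higher and 1 lower in GRmKO liver under CORT, against 2.44% and 2.27% of all genes. In GRf/f liver 0 rose and 5 fell, against 5.9% and 5.72% of all genes. In GRmKO liver 1 rose and 2 fell, against 2.8% and 2.82%.

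Of 30 measured cytochrome P450 enzymes of families 1 to 3, which metabolise drugs and steroids, CORT raised 12 and lowered 3 in GRf/f liver, and raised 10 and lowered 3 in GRmKO liver, against 5.9% and 5.72%, and 2.8% and 2.82%, of all genes. Under CORT 4 were lower in GRmKO liver (Cyp2b10, Cyp2c39, Cyp2a22 and Cyp2d40) and 2 higher (Cyp2a4 and Cyp2b9), and the list median was -0.35. Cyp2b10, the standard target of the xenobiotic receptor CAR, was at 3.3, 877, 6.1 and 362 CPM. It rose by 7.85 in GRf/f and by 5.78 in GRmKO liver on the log2 scale, the vehicle levels being low in both. Cyp3a11, the main drug-metabolising P450, named after its values were seen, was at 1507, 6386, 2438 and 4194 CPM, higher with CORT in both genotypes (log2 2.08 in GRf/f and 0.78 in GRmKO liver). Among 18 bile acid genes, Cyp8b1, the sterol 12-alpha-hydroxylase, was at 220.2, 582, 127 and 262 CPM and rose in both genotypes, and Nr0b2, which encodes the nuclear receptor SHP, was at 23.2, 10.9, 39.7 and 33.8 CPM, with log2 responses of -1.05 and -0.23. Cyp7a1, the rate-limiting enzyme of bile acid synthesis, named after its values were seen, was at 64.7 and 59.9 CPM under CORT.

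Stress and chaperone genes are read beside the shares of all genes, since over all genes CORT also raised more in GRf/f than in GRmKO liver. Of 15 heat shock chaperones 8 rose in GRf/f and 2 in GRmKO liver (Hspa1a and Hspb1), against 5.9% and 2.8% of all genes, with medians of 1.13 and 0.63. Hspa1b, an inducible HSP70, was at 19.2, 201, 43.8 and 70.8 CPM, and shares 67.6% of its words with Hspa1a. Of 19 genes of the ATF4 and unfolded protein responses 7 rose and 2 fell in GRf/f liver, against 5.9% and 5.72% of all genes. In GRmKO liver 4 rose and 1 fell, against 2.8% and 2.82%, and the genotypes differed by gene. Hspa5, the ER chaperone BiP, was at 412, 1018, 561 and 549 CPM, and Creld2, an ER stress gene, was at 21.5, 70.3, 43.2 and 33.5 CPM. Their log2 responses were 1.30 and 1.69 in GRf/f, and -0.03 and -0.36 in GRmKO liver. Gdf15, a secreted stress hormone, was at 9.85, 19.9, 6.22 and 48.2 CPM, higher with CORT in both genotypes (log2 0.98 in GRf/f and 2.86 in GRmKO liver). Among 29 acute-phase genes 4 were lower in GRmKO liver under CORT (Mt1, Mt2, Lcn2 and Orm3) and 0 higher. The shares of all genes were 2.27% and 2.44%. Lcn2, an iron-siderophore binding protein, was at 4.8, 196, 3.16 and 84.9 CPM and rose in both genotypes. Of 16 NRF2 targets 3 were higher in GRmKO liver (Gsta1, Gsta4 and Cbr3) and 0 lower, against 2.44% and 2.27% of all genes. Gsta1 had 92.2% of its words in other genes. Gstm1, a glutathione transferase not called (log2 0.98), was at 1919, 2329.6, 2605 and 4582 CPM.

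Of 11 measured immediate-early genes, which are switched on within minutes by growth factor or stress signals, 5 were higher in GRmKO liver under CORT (Fos, Btg2, Egr1, Jun and Junb) and 1 was lower (Myc), against 2.44% and 2.27% of all genes, with a median of 0.96 beside -0.13 under vehicle. Jun (chr4:95049034-95052222) was at 43.9, 52.3, 34.3 and 127 CPM, high only in the GRmKO CORT library. Btg2, an antiproliferative gene, was at 9.78, 3.61, 10.3 and 10.2 CPM, low only in the GRf/f CORT library. Fos and Myc, named after their values were seen, were at 3.44, 0.683, 3.97 and 5.48 CPM and at 0.58, 5.02, 3.18 and 1.88 CPM. Atf3, a stress-induced factor of the same class, was at 0 in both GRf/f libraries and at 0.921 and 5.77 CPM in the GRmKO libraries, at least 39.4-fold higher under CORT against a floor of 3 reads in the library. It was named after its values were seen.

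Genes of cells other than hepatocytes also differed, and in bulk liver fewer cells of a type and less RNA per cell cannot be told apart. MHC class II genes of antigen-presenting cells fell in both genotypes, all 6 measured of 7, against 5.72% and 2.82% of all genes. The medians were -3.88 in GRf/f and -2.41 in GRmKO liver. Under CORT 5 of the 6 were higher in GRmKO liver, against 2.44% of all genes. The summed level of the list was 131.2, 7.07, 120.8 and 20.1 CPM. Cd74, the invariant chain, named after its values were seen, was at 60.9, 3.5, 49.8 and 8.55 CPM. Of 12 Kupffer cell and macrophage markers 10 fell in GRf/f and 1 (Csf1r) in GRmKO liver, against 5.72% and 2.82% of all genes. Between genotypes 0 were called under CORT, against 4.72% of all genes. The list median was 0.57 under CORT and -0.27 under vehicle. The sum of these markers was 336, 110.7, 269 and 166 CPM. Cd5l, a macrophage-secreted protein, was at 55.3, 13.7, 40.0 and 23.6 CPM. C1qa, the complement component made by macrophages, was at 34.2, 10.7, 27.9 and 18.2 CPM. Of 19 interferon-stimulated genes 15 fell in GRf/f and 7 in GRmKO liver, against 5.72% and 2.82% of all genes. Between genotypes under CORT 0 of the 19 were called, against 4.72% of all genes. Of 9 endothelial markers 3 fell (Clec4g, Kdr and Fcgr2b) and 1 rose in GRf/f liver, against 5.72% and 5.9% of all genes. In GRmKO liver 0 fell and 0 rose, against 2.82% and 2.8%. The 9 markers stood 0.19 to 0.88 higher in GRmKO liver under CORT, and 0 were called.

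The 4 globin entries measured, which share reads, were all higher in GRmKO liver under CORT by 1.38 to 1.54, and under vehicle all lower by 0.60 to 0.71. Hbb-bs was at 344, 131, 222 and 382 CPM, lowest in the GRf/f CORT library, and the summed erythroid list was at 1020.3, 446, 663 and 1119.9 CPM. Alas2, the fifth erythroid marker measured, was at 89.9, 74.5, 66.7 and 58.2 CPM and did not follow the globins. Skeletal muscle markers were near 0, with a summed level of 10 genes of 1.15, 0.65, 0.048 and 8.44 CPM, and pancreatic acinar markers summed to 8.36 CPM at most. Neutrophil, T and NK cell and B cell lists summed to 0.776 to 14.2 CPM under vehicle and 0.579 to 3.87 CPM under CORT. The part of blood or of these cells in the differences named above was not tested. Cytosolic ribosomal protein genes, a reference list, were 0.34 higher in GRmKO liver under CORT and 0.24 higher under vehicle, with 0 of 26 called.

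The lists can be compared by their medians. Under CORT the largest positive medians among the lists with 5 or more measured members were those of erythroid markers (1.49), MHC class II genes (1.24), immediate-early genes (0.96) and cholesterol genes (0.75). The largest negative ones were those of male-biased genes (-0.43), cytochromes P450 (-0.35), female-biased genes (-0.26) and insulin-raised genes (-0.25). The list medians of GR targets, urea cycle, bile acid, iron and hepatocyte genes, between 0.00 and 0.07, turned to between -0.08 and -0.01 when the libraries were rescaled, so no direction is read from them.

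**Figure D5:**
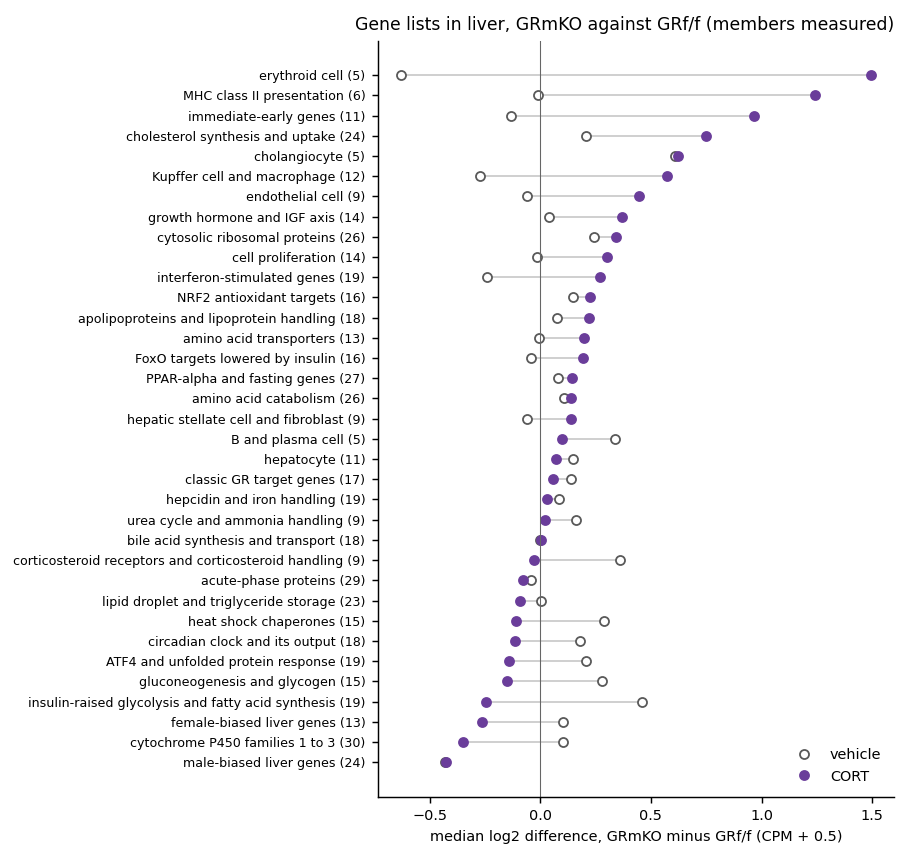
Median log2 difference between GRmKO and GRf/f liver over the measured members of each gene list (their number in brackets), under vehicle (open circles) and CORT (filled circles). Filled circles at the top (erythroid 1.49, MHC class II 1.24, immediate-early 0.96, cholesterol 0.75) lie far from their open circles, while the male-biased list is at -0.43 under both treatments.

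Some responses were close in both genotypes. Cyp17a1, Apoa4, Upp2 and Igfbp2, of which only Igfbp2 is named by rule and the others were picked after their values were seen, changed by at least 8-fold in each genotype and differed by less than 2-fold between genotypes under CORT. Apoa4, an intestinal-type apolipoprotein also made by the liver, was at 53.6, 952, 54.2 and 757 CPM. Upp2, a uridine phosphorylase, was at 432, 41.3, 442 and 48.3 CPM. Cyp17a1, a steroid hydroxylase and lyase, was at 1.53, 279, 3.87 and 248 CPM. A difference of less than 2-fold between single pools does not show that the genotypes respond alike.

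The filter on 0 also left out genes with a value in some of the libraries, and an exact 0 can be a failed estimate. Of the 9767 genes not measured, 5879 were at 0 in all 4 libraries, and 449 reached 1 CPM and 59 reached 10 CPM in a CORT library. Under CORT 116 genes were at 0 in GRf/f and at 1 CPM or more in GRmKO liver, and 106 the reverse. Some of these were abundant in other libraries, and reads assigned to another transcript of the gene are not counted in an entry. Plec, a cytoskeletal linker, was listed at 0 in both GRf/f libraries and at 43.5 and 65.8 CPM in the GRmKO libraries. Gpcpd1, a glycerophosphocholine phosphodiesterase, was at 144.8, 0, 97.0 and 16.4 CPM. Both were named after their values were seen.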

How the data were processed

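RNA-seq reads of 100 bases from gastrocnemius muscle, liver and white adipose tissue were quantified by the authors with Salmon 1.2.1 on GRCm38/mm10 with GENCODE M20 transcripts, and processed in R 3.5.0, as the submitters' processing notes and the study's methods give it. The deposited values are estimated counts of 1 transcript entry for each gene name, not normalized between libraries. They were scaled by transcript length and abundance when the authors imported them with tximport. Of transcripts with the same gene name the authors kept the 1 with the largest total. Each library is 1 pool of 3 mice. Counts were divided here by each library's total to give CPM, and log2 ratios used a pseudocount of 0.5 CPM (Python 3.11.15, numpy 2.4.6, pandas 2.3.3, scipy 1.17.1). Groups came from the submitters' labels. The 12485 genes above 0 in all 4 liver libraries were measured, library totals were 20471247 to 20940660, and a call is a 2-fold difference. Intervals are 95% exact Clopper-Pearson intervals of a ratio of rounded counts, or Wald intervals for a difference of responses, and the calculation was tested on simulated data. The study's own method for 1 library per group, which simulates replicates, was not used. Libraries were also rescaled with TMM factors (edgeR 4.0.16) and median-of-ratios factors (DESeq2 1.42.0, R 4.3.3), which were used for scaling only.

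All 22252 transcripts were found in GENCODE M21, which gave positions and coding transcripts, and promoters came from RefSeq (GRCm38.p6). Shared sequence is the percentage of a transcript's 31-base words also found in transcripts of other genes. 6 motifs were searched on both strands: E-box CACGTG, D-box TTATGTAA, ROR element TAGGTCA, FoxO site GTAAACA, the core TGACG and the palindromic glucocorticoid response element.

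Named genes were the 10 furthest apart under CORT in each direction at 10 CPM or more in a CORT library, the 8 raised and 8 lowered genes of GRf/f liver with the most different response in GRmKO liver and 5 each for the mirror, the up to 4 furthest members of each of 41 lists plus the called clock, FoxO, insulin-raised and PPAR-alpha genes, and 7 genes always named (Nr3c1, Nr3c2, G6pc, Pck1, Tat, Igfbp1 and Dbp). The comparison, its members and the lists were chosen with earlier results of these data known. Scalings, pseudocounts, filters and fold thresholds were varied, 8 alternatives in all. Values of some genes are not reported here.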

Additional observations from a re-analysis of the deposited data

Results flagged for a closer look

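For 21 of the measured genes CORT changed the level 2-fold or more in one direction in GRf/f liver and 2-fold or more in the other direction in GRmKO liver, and 7 of these reached 10 CPM in a library. They are singled out because both libraries of one genotype went against both of the other. Whether the responses differ was not tested, since each group is 1 pool. The values below are the log2 response in GRmKO minus that in GRf/f liver, and CPM are in the order GRf/f vehicle, GRf/f CORT, GRmKO vehicle, GRmKO CORT.

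In 3 genes CORT lowered the level in GRf/f and raised it in GRmKO liver. The difference was 2.73 for Igfbp1, the insulin-repressed IGF-binding protein (37.8, 13.9, 18.2 and 45.9 CPM). It was 2.82 for Eif4g3, a translation initiation scaffold (25.1, 11.7, 10.3 and 35.9 CPM), and 2.96 for Tdrd7, a Tudor-domain protein (17.6, 8.19, 4.69 and 18.9 CPM).

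In the other 4 CORT raised the level in GRf/f and lowered it in GRmKO liver. Raet1d, the NKG2D ligand, had a difference of -4.73 (6.66, 32.4, 12.3 and 1.71 CPM). Repin1, a zinc finger protein, had -2.81 (11.1, 25.9, 28 and 8.72 CPM). Rnf111, a SUMO-targeted ubiquitin ligase, had -2.89 (3.04, 10.5, 7.73 and 2.96 CPM), and Wars, the cytosolic tryptophanyl-tRNA synthetase, had -2.82 (4.15, 13.2, 8.70 and 3.34 CPM). In all 7 genes the genotypes also differed under vehicle in the sense opposite to that under CORT. Other than Igfbp1, each entry is 1 of 2 to 9 coding transcripts of its gene.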

How the results depend on the processing

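The 10 counts given for genotypes and responses kept within 1.5 times of their value with TMM scaling, with median-of-ratios scaling and when a call also needed a counting interval beyond 0. Below, counts run in the order higher and lower in GRmKO under CORT, higher and lower under vehicle, raised and lowered by CORT in GRf/f, raised and lowered with a smaller response in GRmKO, and raised and lowered in GRmKO with a smaller response in GRf/f. At 4-fold they were 19, 23, 7, 13, 135, 116, 34, 18, 7 and 6. With a pseudocount of 2 CPM they were 108, 137, 54, 60, 445, 369, 196, 103, 52 and 34. With a pseudocount of 0.1 CPM they were 646, 506, 387, 283, 1029, 1046, 554, 496, 243 and 200. With genes above 0 in any library (16373 genes) they were about 5.3e+02, then 456, 334, 323, 953 and 973, with 448 lowered genes with a smaller response in GRmKO and 278 and 221 for the reverse. With genes at 5 CPM or more in a library (8482 genes) they were 188, 183, 93, 89, 508, 436, 244, 169, 72 and 50. Counts therefore depend on how low genes are treated. In every setting more genes were higher or lower between genotypes under CORT than under vehicle, and more were raised or lowered in GRf/f with a smaller response in GRmKO than the reverse. Higher genes made up 51.8% of calls under CORT and 43.4% with either scaling, where the median over all genes moved by -0.07. Of the 75 named genes called under CORT, 3 were within 2-fold with either scaling, Cyp51 and Fads2 among them, and 7 with a pseudocount of 2 CPM, which were these 3 with Ciart, Hspa1a, Mlxipl and Nr3c2. No named gene called at 2-fold turned its sign in any setting, while the medians of 5 lists within 0.1 of 0 did with rescaling.

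No paired analysis was possible because each group has 1 library, and leaving out a replicate leaves none. The pool is therefore the limit: a difference between genotypes cannot be told apart from a difference between 2 pools of 3 mice. Depth was nearly equal. Values near the floor of 3 reads, such as the vehicle levels of Sult1e1 and Npas2, set their fold changes only loosely.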

Other observations

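A small group of genes differed between genotypes whichever treatment was given. They were put together after their values were seen, though Acot3 is also named by rule. Cryz, a quinone reductase, was at 12.5, 12.0, 59.3 and 45.3 CPM (GRf/f vehicle, GRf/f CORT, GRmKO vehicle, GRmKO CORT), with log2 differences of 2.19 under vehicle and 1.87 under CORT. Both GRmKO libraries lay above both GRf/f libraries, and the entry is 1 of 8 coding transcripts. Slc5a6, the multivitamin transporter, was at 2.31, 1.31, 7.82 and 4.69 CPM. Acot3, a peroxisomal thioesterase with 41.1% of its words in other genes, was at 3.24, 10.2, 10.02 and 26.7 CPM, rising with CORT in both genotypes from different levels.

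Of 19 iron-handling genes 2 were higher in GRmKO liver under CORT (Hamp2 and Id1) and 0 lower, against 2.44% and 2.27% of all genes. Id1, a target of BMP signalling, was at 2.72, 1.66, 7.04 and 4.29 CPM, and Tfrc, the transferrin receptor, was at 10.9, 28.0, 25.0 and 17.2 CPM. Of 14 proliferation genes Ccnd1 was higher and Mcm5 lower, against the same 2.44% and 2.27% of all genes. Ccnd1, cyclin D1, was at 17.0, 2.85, 22.4 and 6.75 CPM, falling with CORT in both genotypes. Of 5 measured cholangiocyte markers Krt19 was called under CORT, at 0.955, 0.83, 2.08 and 2.94 CPM. Of the 9 stellate cell and fibroblast markers 0 were called. The share of all genes called was 4.72%.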
